A study of Rattus norvegicus with 26 samples.

Results

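The 9 genes described here, Irf7, Irf1, Rsad2, Ifit3, Mx1, Mx2, Isg15, Gbp2 and Gbp5, are interferon response genes, chosen by name and found on the arrays by matching each probe's RefSeq accession to a gene symbol. All 9 were present, on 11 of the 30367 probes outside the controls, out of 15168 gene symbols measured, and all 11 probes entered the test. All groups are male spontaneously hypertensive rats, which inherit high blood pressure, and the RNA came from the thoracic aorta. Oral dosing lasted 4 weeks, with low-dose Songling Xuemaikang capsule (SXC, a herbal preparation, 236.25 mg per kg, 6 arrays), high-dose SXC (708.75 mg per kg, 6 arrays), valsartan (an antihypertensive drug that blocks angiotensin receptors, 21.6 mg per kg, 6 arrays) or saline (7.5 mL per kg, 8 arrays), and the aortas were taken at 28 days. The ages of the rats are not given in the sources used here, and aortas of a normotensive strain were not analysed here.

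Interferons are signalling proteins that cells release when they sense foreign or misplaced nucleic acid. Type I interferons act through the kinases JAK1 and TYK2 to activate transcription factors that bind the interferon-stimulated response element (ISRE) in promoters, and interferon gamma acts through JAK1 and JAK2 on the gamma-activated site (GAS). IRF7 and IRF1 are transcription factors within this response, RSAD2 (viperin), IFIT3, MX1, MX2 and the ubiquitin-like ISG15 are effectors known from antiviral defence, and GBP2 and GBP5 are guanylate-binding GTPases known mainly as interferon gamma targets. In vessels, endothelial cells, smooth muscle cells and macrophages can all mount the response.

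Irf7, Rsad2 and Ifit3 were 8.22-fold to 18.6-fold lower in each treated group than in saline aortas, Gbp2 was 2.09-fold to 2.94-fold lower, and Isg15 was 1.65-fold to 1.80-fold lower. The falls of Irf7, Rsad2 and Ifit3 were smaller where background was modelled by normexp, a fit of signal plus background. Gbp5 was 2.13-fold to 3.21-fold higher by the brighter of its 2 probes. The dimmer was called higher in valsartan aortas only. Mx1 was lower by smaller amounts with high-dose SXC and valsartan and was not called with low-dose SXC. Mx2 was called higher in valsartan aortas alone, and the brighter Irf1 probe was not called in any comparison. The 3 comparisons with saline share the same 8 saline arrays, so they are not separate tests of 1 pattern.

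Several facts of the arrays bear on every comparison with saline. The arrays were scanned on 5 days, and no day held both saline and treated arrays: the last treated scan and the saline scan were 82 days apart, so scan and treatment cannot be told apart there. All valsartan arrays and high-dose arrays 3 to 6 (10 arrays) were scanned at a lower detector voltage, 323 to 325 V, than the other 16, at 353 to 354 V, and the share of probes well above background was 70.0% to 77.0% on low-dose, 28.7% to 79.3% on high-dose, 32.4% to 56.5% on valsartan and 67.3% to 76.2% on saline arrays. Saline arrays 4 and 8 lay close to averages of other saline arrays (SD of the log2 difference 0.17 for array 4 against arrays 1 and 2, and 0.17 for array 8 against arrays 2 and 3), against 0.28 or more for every treated array, so the 8 saline arrays may hold fewer than 8 separate aortas. The smooth muscle markers Acta2 and Myh11 were well above background on all 26 arrays.

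Promoter sequences are shown for the members that changed most, and for Irf1, because the known binding motifs of the pathway can be read in them. RefSeq promoters of the GRCr8 assembly, from 250 bases before to 50 bases after the start, were available for 7 of the 9 members. An ISRE was searched as GAAA, any 2 bases and GAAA again, or on the other strand as TTTC, any 2 bases and TTTC, and a GAS as TTCNNNGAA, which reads the same on both strands, with positions counted from the start. The ISRE letters were found in 5 of the 7 promoters, those of Irf7 (bases -69 to -60), Rsad2 (-147 to -138), Ifit3 (-44 to -35), Gbp2 (-31 to -22) and Gbp5 (-56 to -47), all in the TTTC form, and the GAS letters in that of Irf1 (-142 to -134). The Mx1 window held neither motif. Of all 33469 promoters of the table, 3.92% held the ISRE letters and 8.87% the GAS letters, and of the 105 promoters of other listed pathway genes 45 held the ISRE letters. Capitals mark the motif match.
Irf7, chr1:205799974-205800273, - strand: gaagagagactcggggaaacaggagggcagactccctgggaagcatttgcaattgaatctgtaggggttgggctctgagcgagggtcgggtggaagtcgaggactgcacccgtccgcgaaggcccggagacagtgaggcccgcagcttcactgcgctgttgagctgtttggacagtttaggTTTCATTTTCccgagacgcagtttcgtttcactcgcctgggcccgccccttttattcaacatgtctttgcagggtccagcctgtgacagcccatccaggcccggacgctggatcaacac
Rsad2, chr6:48788071-48788370, - strand: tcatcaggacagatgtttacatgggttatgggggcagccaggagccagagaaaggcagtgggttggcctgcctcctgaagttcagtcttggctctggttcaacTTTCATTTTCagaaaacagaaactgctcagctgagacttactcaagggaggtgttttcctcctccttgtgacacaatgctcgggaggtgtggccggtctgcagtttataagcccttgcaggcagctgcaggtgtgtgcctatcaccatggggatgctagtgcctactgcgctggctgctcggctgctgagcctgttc
Ifit3, chr1:241527076-241527375, + strand: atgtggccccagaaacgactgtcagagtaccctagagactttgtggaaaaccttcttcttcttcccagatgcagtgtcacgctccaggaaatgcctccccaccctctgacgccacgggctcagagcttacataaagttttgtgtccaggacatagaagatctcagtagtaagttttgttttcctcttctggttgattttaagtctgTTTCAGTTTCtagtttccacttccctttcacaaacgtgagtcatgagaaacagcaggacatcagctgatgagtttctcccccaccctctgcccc
Gbp2, chr2:234005477-234005776, + strand: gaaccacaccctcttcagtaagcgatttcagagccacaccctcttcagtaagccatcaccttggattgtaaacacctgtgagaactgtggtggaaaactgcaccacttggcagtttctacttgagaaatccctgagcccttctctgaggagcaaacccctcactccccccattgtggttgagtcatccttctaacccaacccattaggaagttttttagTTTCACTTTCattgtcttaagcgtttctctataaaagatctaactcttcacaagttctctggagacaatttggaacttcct
Gbp5, chr2:233910749-233911048, + strand: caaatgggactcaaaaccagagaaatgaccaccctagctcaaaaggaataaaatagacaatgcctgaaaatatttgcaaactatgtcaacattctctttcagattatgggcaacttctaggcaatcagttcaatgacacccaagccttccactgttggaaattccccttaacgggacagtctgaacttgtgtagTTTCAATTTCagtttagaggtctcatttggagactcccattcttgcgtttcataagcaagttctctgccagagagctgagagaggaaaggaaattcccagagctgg
Irf1, chr10:38417685-38417984, + strand: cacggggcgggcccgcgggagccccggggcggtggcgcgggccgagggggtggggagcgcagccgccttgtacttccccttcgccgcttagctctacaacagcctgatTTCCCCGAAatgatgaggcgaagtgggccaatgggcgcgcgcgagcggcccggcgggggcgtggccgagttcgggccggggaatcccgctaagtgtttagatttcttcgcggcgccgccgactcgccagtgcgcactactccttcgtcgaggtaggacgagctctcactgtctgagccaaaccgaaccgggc
Gbp2 and Gbp5 each hold an ISRE match between bases -56 and -22.

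Levels below are log2 intensities minus the 75th percentile of the same array, so a value of 0 is the 75th percentile, and each level is given as lowest, median and highest over a group's arrays. Irf7, the transcription factor that amplifies type I interferon production, had -3.04, -2.74 and -2.31 in low-dose SXC aortas, -3.22, -2.70 and -1.89 in high-dose SXC aortas, -3.90, -3.00 and -2.37 in valsartan aortas and 0.28, 1.13 and 1.86 in saline aortas. Every treated array lay below every saline array. Irf7 fell, with log2 changes of -3.81 ± 0.27 (SE) with low-dose SXC (adjusted p = 9.99e-11, limma), -3.81 ± 0.27 with high-dose SXC (5.71e-11) and -4.21 ± 0.27 with valsartan (6.64e-12). It was well above background on 6 of 6 low-dose, 5 of 6 high-dose, 3 of 6 valsartan and 8 of 8 saline arrays. With normexp the falls were smaller, at -3.30 with low-dose SXC, -3.05 with high-dose SXC and -3.04 with valsartan, and were still called.

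Irf1, the transcription factor first known as an inducer of interferon beta and a target of interferon gamma, had 1.01, 1.26 and 1.86 in low-dose SXC aortas, 0.81, 1.20 and 1.74 in high-dose SXC aortas, -0.070, 1.59 and 2.45 in valsartan aortas and 0.92, 1.02 and 1.27 in saline aortas, by its brighter probe. The groups overlapped, and the valsartan arrays spread most (SD 1.00, n = 6, against 0.13 in saline, n = 8). The log2 differences from saline were 0.27 ± 0.27 with low-dose SXC (adjusted p = 0.466), 0.17 ± 0.27 with high-dose SXC (0.619) and 0.33 ± 0.27 with valsartan (0.299). A dimmer Irf1 probe gave another answer: it was higher by 1.96 ± 0.33 with high-dose SXC (adjusted p = 1.97e-05) and by 2.00 ± 0.33 with valsartan (1.46e-05), on 5 of 6 and 3 of 6 arrays well above background, but by only 0.28 ± 0.33 with low-dose SXC (0.542). The 2 Irf1 probes therefore disagree, and no direction is given for the gene.

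**Figure D1:**
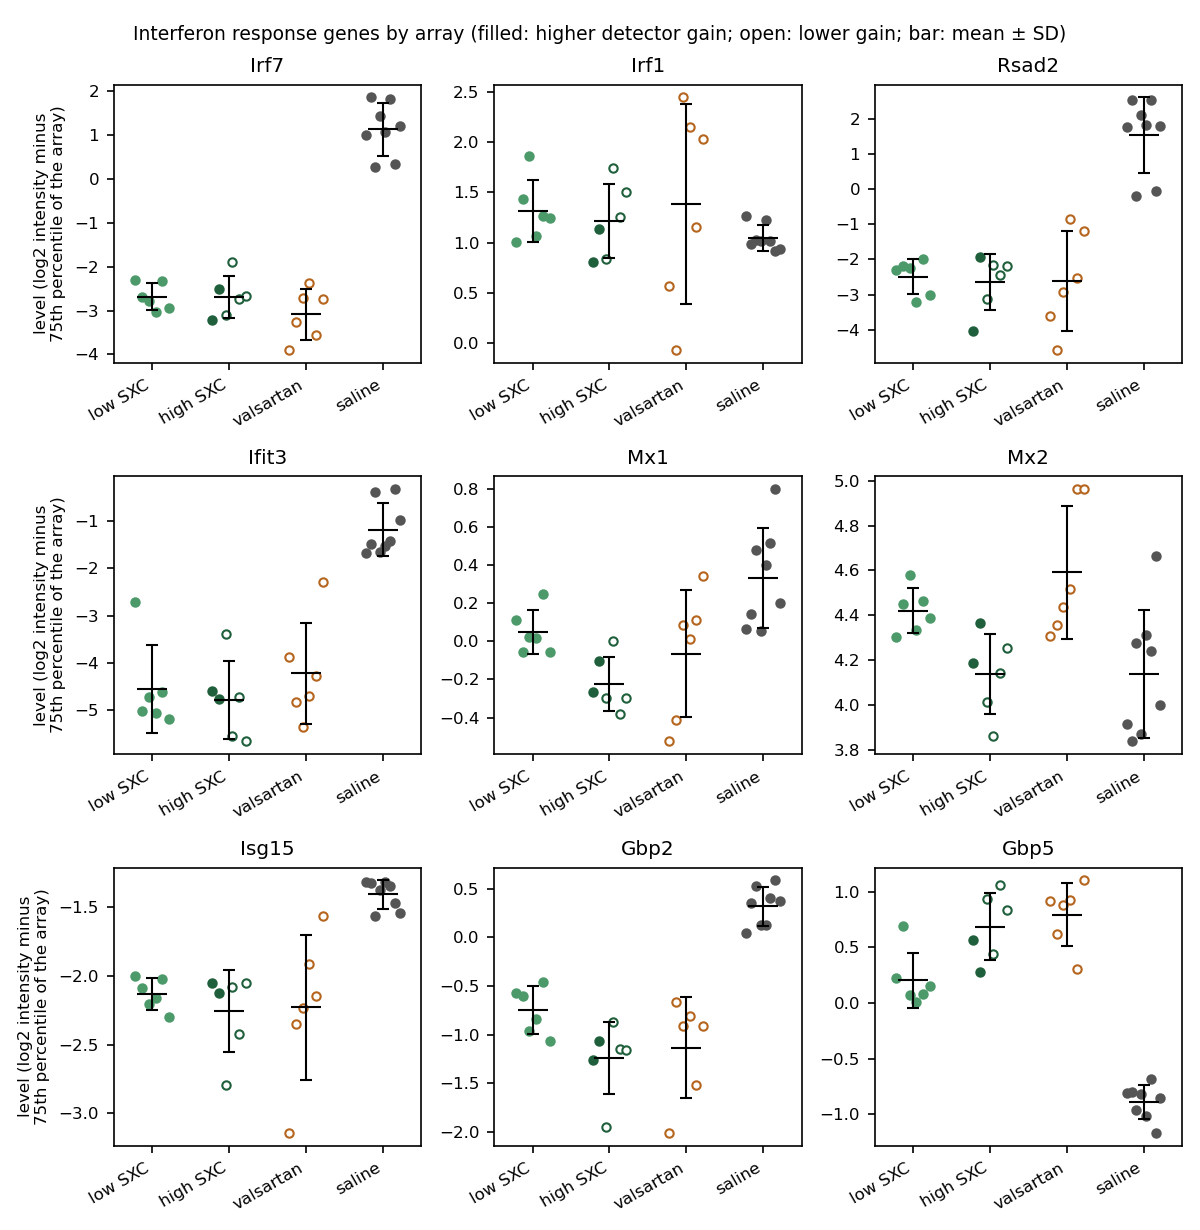
Levels of the 9 genes on each array (y axis, log2 intensity minus the 75th percentile of the array) in low-dose SXC, high-dose SXC, valsartan and saline aortas, filled points at higher and open points at lower detector voltage, with mean ± SD. Irf7, Rsad2, Ifit3 and Gbp2 lay below all saline arrays in every treated group, and the brighter probe of Gbp5, drawn here, lay above them.

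Rsad2, which encodes viperin, an enzyme that makes a chain-terminating nucleotide against viruses, had -3.22, -2.28 and -1.98 in low-dose SXC aortas, -4.04, -2.33 and -1.92 in high-dose SXC aortas, -4.58, -2.73 and -0.85 in valsartan aortas and -0.18, 1.83 and 2.55 in saline aortas. No treated array reached the lowest saline array. Rsad2 fell, with log2 changes of -4.04 ± 0.51 with low-dose SXC (adjusted p = 7.14e-07), -4.20 ± 0.51 with high-dose SXC (1.76e-07) and -4.16 ± 0.51 with valsartan (1.91e-07). Rsad2 was well above background on 6 of 6 low-dose, 5 of 6 high-dose, 4 of 6 valsartan and 8 of 8 saline arrays. With normexp its changes, still called, were -3.49 with low-dose SXC, -3.30 with high-dose SXC and -2.95 with valsartan. Saline arrays 3 and 7 were the lowest saline arrays for both Rsad2 (-0.18 and -0.06) and Irf7 (0.28 and 0.34), while the other 6 saline arrays had 1.77 to 2.55 for Rsad2.

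Ifit3, a partner in the IFIT antiviral complex, had -5.19, -4.87 and -2.72 in low-dose SXC aortas, -5.66, -4.74 and -3.39 in high-dose SXC aortas, -5.36, -4.49 and -2.30 in valsartan aortas and -1.67, -1.46 and -0.32 in saline aortas. The groups did not overlap, though the treated values lie near background: Ifit3 was well above background on 6 of 6 low-dose, 2 of 6 high-dose, 1 of 6 valsartan and 8 of 8 saline arrays. It fell, with log2 changes of -3.37 ± 0.43 with low-dose SXC (adjusted p = 9.26e-07), -3.60 ± 0.43 with high-dose SXC (1.54e-07) and -3.04 ± 0.43 with valsartan (1.75e-06). Saline arrays 3 and 7, lowest for Irf7 and Rsad2, were the highest for Ifit3, at -0.38 and -0.32. With normexp the Ifit3 falls were smaller, at -2.15 with low-dose SXC, -1.86 with high-dose SXC and -1.30 with valsartan, and were still called.

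Isg15, a ubiquitin-like protein joined to other proteins during the response, had -2.30, -2.12 and -2.00 in low-dose SXC aortas, -2.79, -2.10 and -2.05 in high-dose SXC aortas, -3.14, -2.19 and -1.57 in valsartan aortas and -1.56, -1.36 and -1.32 in saline aortas. All treated arrays lay below the lowest saline array, by a thin margin for 1 valsartan array. Isg15 was well above background on 6 of 6 low-dose, 5 of 6 high-dose, 5 of 6 valsartan and 8 of 8 saline arrays. The log2 changes were -0.72 ± 0.18 with low-dose SXC (adjusted p = 0.00173), -0.85 ± 0.18 with high-dose SXC (0.00021) and -0.82 ± 0.18 with valsartan (0.000293). With normexp or with detector gain as a block the valsartan call ended (-0.20, adjusted p = 0.0893, and -0.57, adjusted p = 0.275). Only the high-dose SXC group holds arrays at both detector voltages, and those were scanned on different days. Wherever gain is used as a block, its term therefore rests on that group, not on valsartan or saline arrays.

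The Mx genes encode dynamin-like GTPases that block viral replication, Mx1 in the nucleus and Mx2 in the cytoplasm in rodents. Mx1 had -0.057, 0.019 and 0.25 in low-dose SXC aortas, -0.38, -0.28 and 0.0004 in high-dose SXC aortas, -0.53, 0.049 and 0.34 in valsartan aortas and 0.051, 0.30 and 0.80 in saline aortas. High-dose arrays all lay below saline, and the low-dose and valsartan arrays overlapped with it. Mx1 fell, with log2 changes of -0.56 ± 0.14 with high-dose SXC (adjusted p = 0.00125) and -0.40 ± 0.14 with valsartan (0.0155), and the low-dose difference of -0.29 ± 0.14 was not called (0.101). With detector gain as a block neither Mx1 call held (-0.52, adjusted p = 0.0582, for high-dose SXC, and -0.34, adjusted p = 0.441, for valsartan), and the valsartan call also ended without valsartan array 1 (-0.31, adjusted p = 0.0562).

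Mx2 had 4.30, 4.42 and 4.58 in low-dose SXC aortas, 3.86, 4.16 and 4.36 in high-dose SXC aortas, 4.31, 4.48 and 4.96 in valsartan aortas and 3.84, 4.12 and 4.67 in saline aortas. Every group overlapped with saline. Mx2 was higher by 0.45 ± 0.13 in valsartan aortas (adjusted p = 0.00506), and the differences of 0.28 ± 0.13 with low-dose SXC (0.0926) and -0.0023 ± 0.13 with high-dose SXC (0.990) were not called. Its table entry also carries the synonym Mx3, so signal from a near-identical copy cannot be told apart from Mx2. The valsartan call ended when saline arrays 1 and 5, 2 and 6, and 3 and 7 were averaged into 3 values (0.38, adjusted p = 0.0605), with normexp (0.24, 0.108) and with detector gain as a block (0.66, 0.0761).

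Gbp2, a GTPase that is recruited to pathogen-containing vacuoles, had -1.06, -0.72 and -0.45 in low-dose SXC aortas, -1.94, -1.15 and -0.86 in high-dose SXC aortas, -2.01, -0.91 and -0.66 in valsartan aortas and 0.048, 0.36 and 0.59 in saline aortas. The treated and saline arrays did not overlap. Gbp2 was well above background on 6 of 6 low-dose, 5 of 6 high-dose, 5 of 6 valsartan and 8 of 8 saline arrays. The lowest high-dose and valsartan values were the ones not well above background. Gbp2 fell, with log2 changes of -1.06 ± 0.19 with low-dose SXC (adjusted p = 5.85e-05), -1.56 ± 0.19 with high-dose SXC (1.56e-07) and -1.45 ± 0.19 with valsartan (4.16e-07).

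Gbp5, a guanylate-binding protein known in inflammasome assembly, was measured by 2 probes that disagree with both SXC doses. Its brighter probe, measured by 10 spots on each array, had 0.0053, 0.12 and 0.69 in low-dose SXC aortas, 0.28, 0.70 and 1.06 in high-dose SXC aortas, 0.31, 0.90 and 1.11 in valsartan aortas and -1.17, -0.84 and -0.68 in saline aortas. Every treated array lay above every saline array, and the probe was well above background on all 26 arrays. Of all probes tested, 15.7% lay wholly above saline with low-dose SXC, 18.8% with high-dose SXC and 17.8% with valsartan. By this probe Gbp5 was higher by 1.09 ± 0.14 with low-dose SXC (adjusted p = 1.15e-06), by 1.58 ± 0.14 with high-dose SXC (2.18e-09) and by 1.68 ± 0.14 with valsartan (6.04e-10). A second, dimmer Gbp5 probe differed from this: its changes were -0.57 ± 0.58 with low-dose SXC (adjusted p = 0.468), -0.22 ± 0.58 with high-dose SXC (0.762) and 1.82 ± 0.58 with valsartan (0.00964), with signal well above background on 4 of 6 low-dose, 1 of 6 high-dose, 2 of 6 valsartan and 8 of 8 saline arrays. Its valsartan arrays were split: arrays 1, 2 and 3 had -0.70, -2.74 and -1.69, and arrays 4, 5 and 6 had -5.68, -5.03 and -4.86. The saline arrays ran from -5.55 to -4.69 by this dimmer probe. With the mean of both probes the low-dose and high-dose calls ended (0.26, adjusted p = 0.541, and 0.68, 0.0666).

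**Figure D2:**
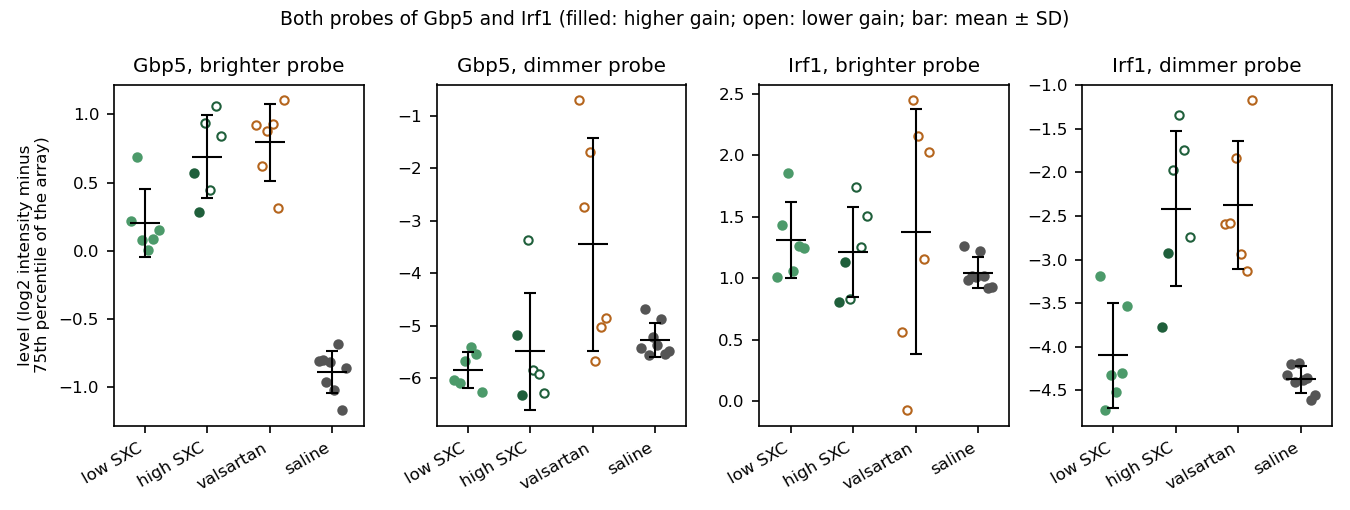
Levels of both probes of Gbp5 and Irf1 on each array (y axis, log2 intensity minus the 75th percentile of the array) in low-dose SXC, high-dose SXC, valsartan and saline aortas, with mean ± SD. The dimmer probes lie at -0.70 or below, and their treated arrays do not all repeat the pattern of the brighter probes.

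Over the 9 members, counting the brighter probe of each, 5 were lower and 1 higher with low-dose SXC, 6 lower and 1 higher with high-dose SXC, and 6 lower and 2 higher with valsartan, each against saline. Of the 23744 probes tested, 39.6% were called with low-dose SXC (17.2% lower, 22.4% higher), 56.9% with high-dose SXC (22.2% lower, 34.8% higher) and 58.3% with valsartan (25.5% lower, 32.8% higher). All arrays of the treated group lay below all saline arrays for 5 members with low-dose SXC, 6 with high-dose SXC and 5 with valsartan, where 15.3%, 10.1% and 12.8% of all probes did so in those comparisons. The members' median log2 change was -0.72, -0.85 and -0.82 for low-dose SXC, high-dose SXC and valsartan, beside all-probe medians of 0.084, 0.22 and 0.18. The members were picked by name with earlier results of these data known, so their share is a description.

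**Figure D3:**
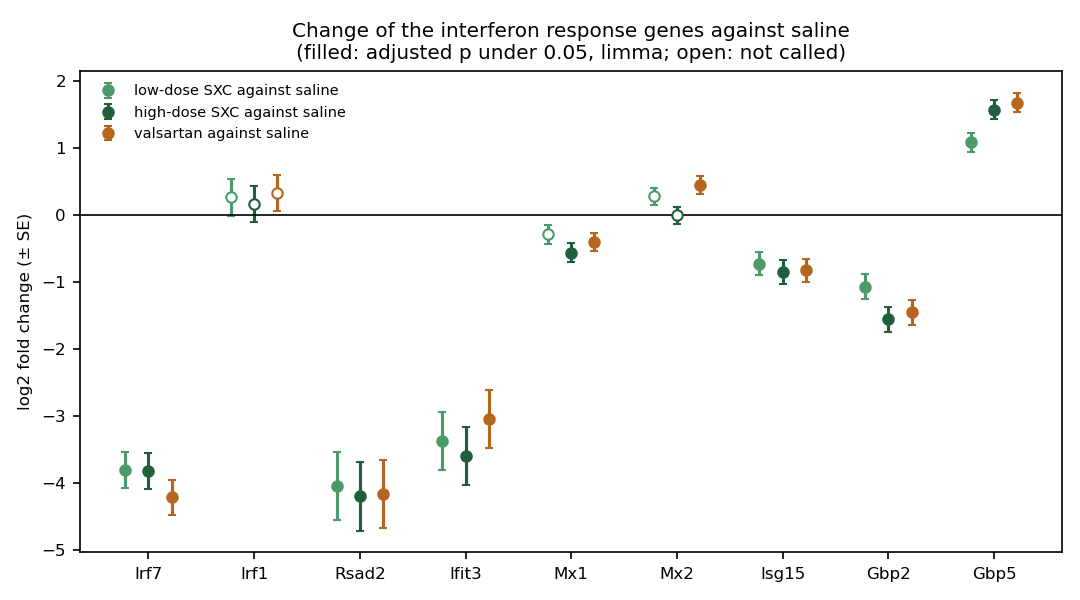
Log2 fold change against saline (y axis, ± SE) of the 9 genes with low-dose SXC, high-dose SXC and valsartan, filled where the adjusted p was under 0.05. Irf7, Rsad2 and Ifit3 sit between -4.21 and -3.04, and the brighter probe of Gbp5 sits above 1.

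Scaling shifted the whole distribution, so the changes were also read against the median of all probes under each of 5 scalings. That median ran from -0.15 to 0.24 with low-dose SXC, from -0.23 to 0.54 with high-dose SXC and from -0.30 to 0.69 with valsartan. Rises made up 56.6% of the called probes with low-dose SXC (38.2% to 64.2% under the other scalings), 61.1% with high-dose SXC (41.7% to 75.9%) and 56.2% with valsartan (38.1% to 77.9%). Relative to the median of all probes, Irf7 ranged from -3.93 to -3.54 with low-dose SXC, from -4.195 to -3.59 with high-dose SXC and from -4.85 to -3.73 with valsartan. Gbp5 ranged from 0.78 to 1.08 with low-dose SXC, from 0.88 to 1.81 with high-dose SXC and from 0.83 to 1.98 with valsartan. Isg15 remained below the median by 0.64 or more in all 3 comparisons. Mx2 and Irf1 changed sign relative to the median between scalings in the high-dose and valsartan comparisons, so no direction relative to other genes is given for them there. At equal detector voltage, 2 high-dose and 8 saline arrays gave log2 changes of -3.99 ± 0.37 for Irf7, -4.53 ± 0.68 for Rsad2, -3.50 ± 0.52 for Ifit3, -1.48 ± 0.17 for Gbp2, -0.68 ± 0.12 for Isg15 and 1.31 ± 0.17 for Gbp5.

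**Figure D4:**
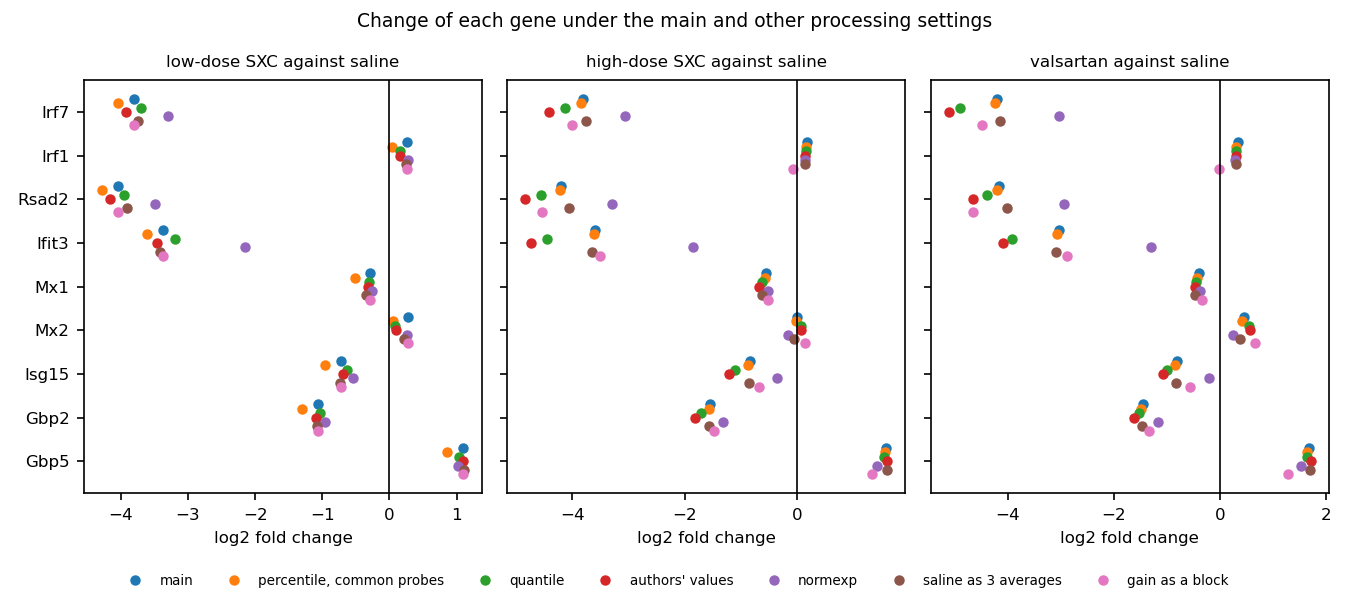
Log2 fold change against saline (x axis) of each gene under the main setting and 6 others, 1 panel per treated group. Irf7, Rsad2, Ifit3 and Gbp2 stay below 0 and Gbp5 above 0 in every setting drawn.

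Between the treated groups, counting the brighter probes, Gbp5 was the only member called. It was higher in high-dose than in low-dose SXC aortas by 0.48 ± 0.15 (adjusted p = 0.0241, 1 of 9 members called, 22.4% of all probes) and in valsartan than in low-dose SXC aortas by 0.59 ± 0.15 (0.00667, 1 of 9, 25.3%). Its arrays overlapped in both comparisons, and neither call held with slide as a random block (0.46, adjusted p = 0.109, and 0.57, 0.0704) or with detector gain as a block (0.22, 1.00, and 0.20, 0.971). The dimmer Irf1 probe was also higher in high-dose than in low-dose SXC aortas, by 1.68 ± 0.36 (adjusted p = 0.00179), and in valsartan than in low-dose SXC aortas, by 1.73 ± 0.36 (0.00122). The dimmer Gbp5 probe was higher in valsartan than in low-dose SXC aortas by 2.39 ± 0.62 (0.00718), while between the SXC doses it differed by 0.35 ± 0.62 (0.726). With detector gain as a block, 0 of the 23744 probes were called between the SXC doses, so the dimmer Irf1 call did not hold there. Between valsartan and low-dose SXC, 3 of all probes were called in that setting. Between valsartan and high-dose SXC limma called 0 of 9 members, beside 1.19% of all probes, and 1 member, Mx2, had an unadjusted p under 0.05 (difference 0.45 ± 0.14, limma adjusted p = 0.0995). For Irf7 the treated groups differed by -0.0048 ± 0.29 (high-dose against low-dose SXC), -0.41 ± 0.29 (valsartan against low-dose SXC) and -0.40 ± 0.29 (valsartan against high-dose SXC), which does not show that their levels are alike.

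Within groups, each member's deviation from its group mean was set against the mean deviation of the other members among Irf7, Rsad2, Ifit3, Mx1, Mx2 and Isg15 (the type I set) over the 26 arrays, which share labelling, brightness and scan conditions. Pearson's r was 0.59 for Isg15, 0.53 for Irf1, 0.49 for Mx1, 0.46 for Irf7, 0.44 for Rsad2, 0.32 for Gbp2, 0.21 for Mx2, 0.21 for Gbp5 and -0.035 for Ifit3. Valsartan arrays spread most, with a mean deviation of the type I set of 0.86 for array 6 and -0.57 for array 2. The genes most like the type I mean were Jam2 (0.82), an endothelial junction protein, Cx3cl1 (0.80) and Cxcl1 (0.80), both chemokines, Sugp2 (0.80) and Il6st (0.79), among 12240 genes. Those most like Gbp5 were Ndc80 (0.65) and Nuf2 (0.60), kinetochore subunits, Slc12a9 (0.62), Plagl1 (0.60) and Pbk (0.57).

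Other genes of the pathway were read from lists by role: 142 were listed and 88 were on the arrays and bright enough to test. With low-dose SXC 39 were lower and 4 higher than in saline, with high-dose SXC 41 lower and 14 higher, and with valsartan 48 lower and 11 higher, with median log2 changes of -0.58 for low-dose SXC, -0.51 for high-dose SXC and -0.63 for valsartan. Of all probes, 17.2% were lower and 22.4% higher with low-dose SXC, 22.2% and 34.8% with high-dose SXC, and 25.5% and 32.8% with valsartan. The counts by role and by cell type below are to be read beside these shares. Among the interferons themselves, 5 of 13 listed were on the arrays and 2 were tested, which differed in direction. Ifna4, a type I interferon with near-identical family members that the probe may not separate, changed by -0.91 ± 0.26 with low-dose SXC, -0.89 ± 0.26 with high-dose SXC and -0.86 ± 0.26 with valsartan. Ifna5, another type I interferon of that family, was higher by 2.62 ± 0.52 with high-dose SXC (adjusted p = 0.000147) and by 2.29 ± 0.52 with valsartan (0.000599). Its difference with low-dose SXC was 0.97 ± 0.52 (0.146). It was well above background on 4 of 6 low-dose, 3 of 6 high-dose, 1 of 6 valsartan and 1 of 8 saline arrays. Ifnb1, Ifnk and Ifng were too dim to test.

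Of 6 receptors and kinases tested, 4 were lower with low-dose SXC, 5 with high-dose SXC and 5 with valsartan, and none was called higher. Ifngr1, the ligand-binding chain of the interferon gamma receptor, fell, with log2 changes of -1.53 ± 0.14 with low-dose SXC, -1.47 ± 0.14 with high-dose SXC and -1.76 ± 0.14 with valsartan. Jak1 fell, with log2 changes of -1.27 ± 0.14, -1.53 ± 0.14 and -1.42 ± 0.14 with low-dose SXC, high-dose SXC and valsartan. Jak2 fell likewise, with -1.56 ± 0.19, -1.36 ± 0.19 and -1.44 ± 0.19. Adjusted p-values for these 3 genes lay between 1.95e-10 and 1.34e-06.

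Of 9 sensors and adaptors tested, 5 were lower and 1 higher with low-dose SXC, 2 and 1 with high-dose SXC, and 3 and 2 with valsartan. The counts lower with high-dose SXC and valsartan lie near the shares of all probes, 22.2% and 25.5%. The kinase Tbk1, which phosphorylates IRF3, fell, with log2 changes of -1.08 ± 0.25 with low-dose SXC, -1.59 ± 0.25 with high-dose SXC and -2.52 ± 0.25 with valsartan, where 1 of 6 arrays was well above background. Tlr3, a sensor of double-stranded RNA, was higher by 0.96 ± 0.16, 0.83 ± 0.16 and 0.95 ± 0.16 in those groups. Among 40 antiviral effectors, 21 were lower and 0 higher with low-dose SXC, 22 and 5 with high-dose SXC, and 27 and 5 with valsartan. Slfn2, a Schlafen family gene, fell, with log2 changes of -3.60 ± 0.34 with low-dose SXC, -3.92 ± 0.34 with high-dose SXC and -3.80 ± 0.34 with valsartan, and was well above background on 6 of 6, 2 of 6 and 1 of 6 of those arrays. Isg20, an exonuclease, fell, with log2 changes of -1.03 ± 0.11, -0.91 ± 0.11 and -1.21 ± 0.11 in the same groups. Ifi47, a GTPase induced by interferon gamma in mice, differed in kind: it was higher by 3.12 ± 0.46 with high-dose SXC and by 2.73 ± 0.46 with valsartan, and its difference with low-dose SXC was 0.40 ± 0.46 (adjusted p = 0.517).

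Antigen processing genes and other interferon gamma targets, read as 1 list, were mixed. Of 13 tested, 5 were lower and 2 higher with low-dose SXC, 5 and 3 with high-dose SXC, and 5 and 1 with valsartan. Psme1, a proteasome activator subunit, fell, with log2 changes of -1.08 ± 0.11 with low-dose SXC, -1.41 ± 0.11 with high-dose SXC and -1.42 ± 0.11 with valsartan. Psmb9, an immunoproteasome subunit, was higher by 1.88 ± 0.33 with high-dose SXC and by 2.05 ± 0.33 with valsartan, with -0.34 ± 0.33 in low-dose SXC aortas (adjusted p = 0.444). Of 7 restraints of the pathway tested, 2 were lower with low-dose SXC, 3 with high-dose SXC and 2 with valsartan, among them the phosphatases Ptpn2 (-1.04 ± 0.24 with low-dose SXC, -1.37 ± 0.24 with high-dose SXC and -1.45 ± 0.24 with valsartan) and Ptpn6 (-1.37 ± 0.27, -1.50 ± 0.27 and -1.97 ± 0.27 in those groups). A further 2 were higher with high-dose SXC.

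**Figure D5:**
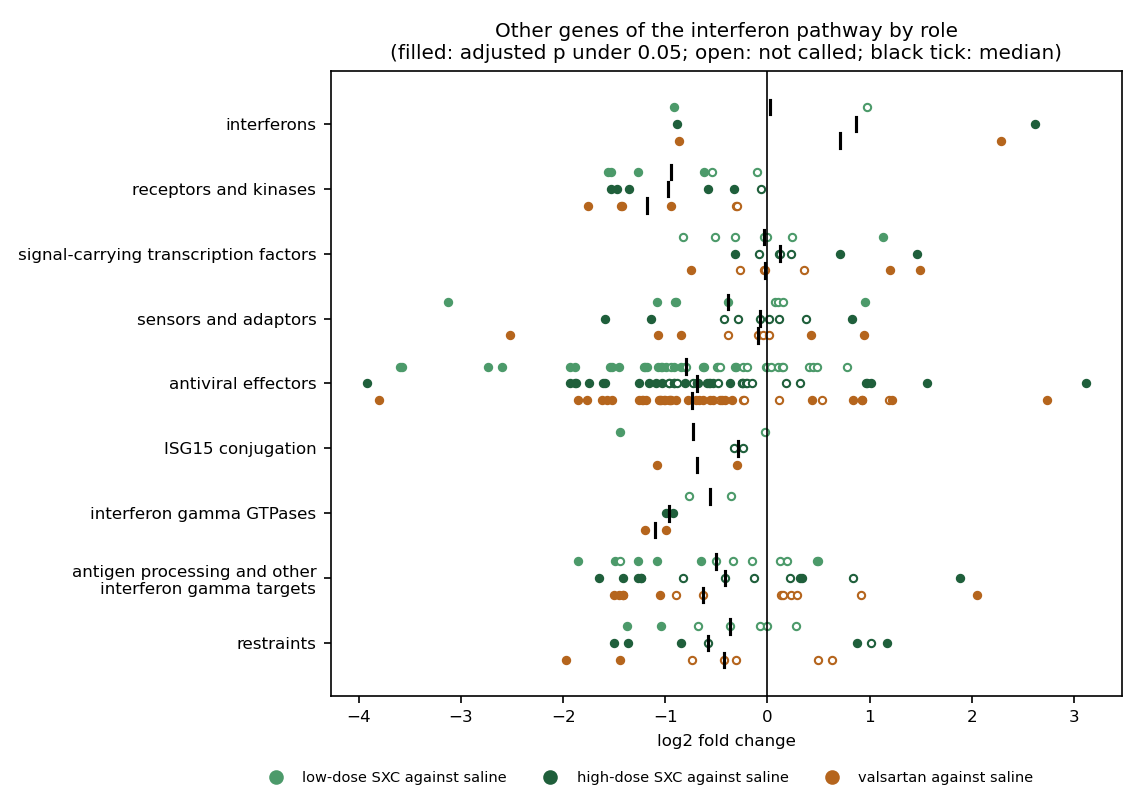
Log2 fold change against saline (x axis) of the other tested genes of the interferon pathway, grouped by role, with low-dose SXC, high-dose SXC and valsartan, filled where the adjusted p was under 0.05 and with the median of each list as a black tick. Most filled receptor, kinase and antiviral effector points lie below 0, while some lists hold filled points on both sides.

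Markers of other cell types moved in the same comparisons, and their part in the members' changes was not tested. In bulk tissue, fewer cells of a type and less RNA per cell cannot be told apart. Of 17 macrophage markers, 14 were lower with low-dose SXC, 14 with high-dose SXC and 15 with valsartan, and none was called higher. Their summed linear level, in multiples of the array's 75th percentile, was 46.6 to 59.8 in low-dose SXC aortas, 19.7 to 42.1 in high-dose SXC aortas, 10.6 to 24.2 in valsartan aortas and 36.7 to 68.3 in saline aortas. The low-dose sums thus lay within the saline range and the high-dose sums overlapped with it, and bright markers weigh most in such sums. Ptprc, the pan-leukocyte marker, fell, with log2 changes of -2.32 ± 0.24 with low-dose SXC and -2.84 ± 0.24 with high-dose SXC, and was at least 5.36-fold lower with valsartan, where 0 of 6 arrays were well above background. Of 8 endothelial markers, 6 were lower with low-dose SXC, 6 with high-dose SXC and 5 with valsartan, and 1 was higher in each treated group. Their sums were 3.71 to 7.45, 2.47 to 10.4 and 3.37 to 8.55 in those groups, overlapping with 5.69 to 30.8 in saline aortas. Pecam1 fell, with log2 changes of -2.43 ± 0.29, -2.71 ± 0.29 and -2.79 ± 0.29 with low-dose SXC, high-dose SXC and valsartan. All 8 red cell markers were lower in each treated group, with sums of 9.88 to 34.7, 4.67 to 22.7 and 5.92 to 19.9 in low-dose SXC, high-dose SXC and valsartan aortas, against 269.6 to 949 in saline aortas. Of 6 adipocyte markers, 6, 5 and 6 were lower in those groups. The 4 measured plasmacytoid dendritic cell markers, a cell type known for making type I interferon, summed to 15.3 to 17.9, 14.2 to 17.5 and 11.04 to 16.5 in low-dose SXC, high-dose SXC and valsartan aortas, against 9.70 to 11.8 in saline aortas. The brightest markers weigh most in that sum. Singly, 1, 0 and 0 of the 4 were called lower and 1, 2 and 1 higher, so no direction is given for the cell type. T, NK and B cell markers were called lower in 1, 0 and 0 of 9 tested and higher in 0, 4 and 2.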

How the data were processed

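The members and the lists used here were chosen with earlier results of these data known. Per the labels' protocols, RNA was extracted from each aorta separately and labelled with Cy3. Per the file headers and the submitters' processing notes, the arrays were read with Agilent Feature Extraction 11.0.1.1, and the deposited processed intensity was background-subtracted and detrended within each array. The deposited files also hold spot flags (other values of 0 or 1), and the authors' deposited table holds log2 values whose normalization is not stated; it was tried as another setting. Controls and flagged outlier spots were dropped, and a probe's spots were averaged. Levels are log2 intensity minus the array's 75th percentile over all spots outside controls. A probe was tested when at least 0.5 of its spots passed Agilent's well-above-background flag, on 6 or more of the 26 arrays, which left 23744 of 30367 probes. Probes were named by RefSeq accession against the GRCr8 gene list, where 18005 had 1 symbol, 12362 none and 0 several. The member's brightest probe counted.

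Groups were compared in 1 limma 3.58.1 fit (R 4.3.3, the data.table package, version 1.17.8; eBayes with a trend, 2-sided) over 26 arrays with no covariates. Benjamini-Hochberg adjustment over the 23744 probes was applied per comparison at 0.05. A gene undetected over background throughout a group has only a lower bound on its fold. The number of arrays limits the precision. Fits were tested on simulated data with 200 of 23744 probes changed: for high-dose SXC against saline, 43% of 2-fold and 81% of 4-fold changes were recovered. The simulated noise was independent between arrays, with no slide or gain effect. In the data 56.9% of probes were called in that comparison, so recovery there may differ. Replicate numbers did not pair the arrays (36 group pairs, r from -0.365 to 0.277, 6 over 0.1). The named genes are the 9 members and, by role and comparison, up to 3 called pathway genes a direction with the smallest p, of which examples are given. Some named pathway genes are not reported here. Figures were drawn with matplotlib 3.10.9. Alternatives were quantile scaling, other percentiles, normexp (offset 50), the authors' values, filters, slide, scan day, detector gain and replicate blocks, saline averages, the mean of all probes of a gene, and each array left out.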

Additional observations from a re-analysis of the deposited data

Results flagged for a closer look

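Across the 11 probes and 4 groups, 44 sets of arrays were examined for a lone value by Dixon's ratio, and 3 were beyond it, where chance alone gives about 1 in 20. Ifit3 was highest in low-dose SXC array 1, at -2.72, with the next array at -4.62. Gbp5 was highest in low-dose SXC array 2, at 0.69, with the next at 0.22, by its brighter probe. Gbp2 was lowest in high-dose SXC array 3, at -1.94, where it was not well above background, with the next at -1.26.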

How the results depend on the processing

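Of 1462 member changes recomputed, 1418 stayed on the same side of the threshold, 25 lost and 17 gained a call. Among the 1418, called changes kept their direction, but uncalled changes may have switched sign. Irf7, high-dose against low-dose SXC, for example ran from -0.49 to 0.25 and was never called. The remaining 2 switched sign with a call in the alternative run: Irf1, high-dose against low-dose SXC, was 0.79 with the mean of all probes, and Isg15, valsartan against low-dose SXC, was 0.33 with normexp. Falls of Irf7, Rsad2 and Gbp2 against saline were called in every alternative run, and those of Ifit3 in every run that tested it. The stricter filter on dim probes left Ifit3 untested with high-dose SXC and with valsartan. Members called higher with low-dose SXC numbered 2 with the replicate block and 0 with the mean of all probes, against 1; with valsartan 1 with normexp, gain as a block or saline averages and 3 with the mean of all probes, against 2. Members lower with valsartan numbered 4 with gain as a block and 5 with normexp, the replicate block or the stricter filter, against 6. With high-dose SXC they numbered 5 with gain as a block or the stricter filter, against 6. With low-dose SXC they numbered 6 with 1 gain only or the percentile over probes well above background on all arrays, against 5. Between high-dose and low-dose SXC, members lower numbered 1 with quantile scaling, the authors' values or averaged spots (added after seeing the data) and 2 with normexp, against 0, and members higher 0 with slide (random or fixed), scan day or gain as blocks, 1 gain only or averaged spots, against 1. Between valsartan and low-dose SXC, members higher numbered 2 with quantile scaling, the authors' values or the mean of all probes, 3 with normexp and 0 with slide as a random block or gain as a block, against 1; between valsartan and high-dose SXC, 1 with gain as a block, against 0. The causes were not tested.

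Leaving out each array gave, for members higher, 1 to 2 with low-dose SXC, 2 to 3 with valsartan and 0 to 1 between high-dose and low-dose SXC (0 without low-dose array 3, 4 or 5 or high-dose array 3 or 5), and for members lower 5 to 6 with valsartan. Without saline array 7, Mx2 was called with low-dose SXC (0.36, adjusted p = 0.023); without valsartan array 2, Irf1 was called with valsartan (0.62, 0.0242). With the replicate block, Mx1 was no longer called with valsartan (-0.34, 0.0512); same-numbered arrays share only a number. Over all probes, calls ranged from 5642 (saline averages) to 13101 (1 gain only) against 9403 with low-dose SXC, from 6438 (gain as a block) to 19099 (no filter on dim probes) against 13518 with high-dose SXC, and from 3258 (gain as a block) to 20559 (no filter on dim probes) against 13849 with valsartan. They ranged from 0 to 10607 against 5322 between the SXC doses, from 3 to 14530 against 6006 between valsartan and low-dose SXC, and from 4 to 1317 against 282 between valsartan and high-dose SXC. Treated arrays near background limit, among others, Irf7, Rsad2, Ifit3, Tbk1, Slfn2, Ptpn6, Ifna4, Ifna5 and the second probes.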
